A study of Mus musculus with 4 samples.

Results

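The neuronal pentraxins are a family of 3 genes, Nptx1, Nptx2 and Nptxr, and their RNA was examined in Neuro-2A, a cell line from a mouse neuroblastoma, after transfection with the transcription factor Zac1. Members were taken by gene symbol. The family was chosen by the size of the Nptx1 difference between Zac1 and control cells, so the Nptx1 values are given as a description with no test. Of the 3 members, 1 had a line in the table of 12866 lines. Nptx2 (gene ID 53324) and Nptxr (gene ID 73340) were searched for by symbol, gene ID and synonym, had no line there, and were not analysed here. The results therefore concern Nptx1 (gene ID 18164).

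Neuronal pentraxins are neuronal members of the pentraxin superfamily, named for the pentraxin domain that they share with the blood proteins C-reactive protein and serum amyloid P component. Nptx1 and Nptx2 are secreted, while Nptxr is held in the membrane until its ectodomain is shed by the protease Adam17. The proteins assemble with each other and gather AMPA-type glutamate receptors at excitatory synapses. Nptx2, also known as Narp, is an immediate early gene of neuronal activity, and Nptx1 was first isolated as a binding protein of the snake toxin taipoxin.

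Cells carried a pRK5 plasmid with Zac1, the zinc-finger protein encoded by the imprinted gene Plagl1, or a pRK5 plasmid with bacterial chloramphenicol acetyltransferase (CAT) as the negative control. Both groups were lipofected, and RNA was taken 16 h later, so all libraries come from transiently transfected cells of 1 line with no untransfected group. Each group held 2 libraries, from transfections numbered 9 and 12. Digital gene expression was used, which counts a short tag beside a DpnII site of each polyadenylated transcript.

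The tag is the sequence that this method reads from a transcript. In the GENCODE M21 transcript (build GRCm38, another build than the mm9 of the deposited data), Nptx1 lies on chromosome 11, on the minus strand, with 5 exons, a transcript of 5217 bases and a GC content of 54.9%. That transcript holds 18 DpnII sites, 7 of them in the coding part, and the last one lies in the 3′ untranslated region with 645 bases from its first base to the transcript's end. The tags predicted at the last site of each family member are printed below, with the DpnII site in capitals and the 16 bases after it in lower case, 5′ to 3′ on the transcript's strand. They are shown to compare the family members at that site, and tags at their other sites were not compared.

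Nptx1: GATCttgagggtgtgtaagg

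Nptx2: GATCcatggatgttccatct

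Nptxr: GATCtgtgccatggcttttg

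The Nptx1 tag differed from that of Nptx2 at 13 of the 16 bases after the site and from that of Nptxr at 11. In the M21 transcripts the Nptx1 tag of 20 bases was found in 0 other genes on either strand, and 0 annotated genes overlap Nptx1. The sources used here do not say which tags the authors assigned to Nptx1, and the counted tag may come from another of its sites.

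Plagl1 (gene ID 22634), the transfected gene, was measured first as a check of the labels. It had a normalised count of 3397 in Zac1 replicate 9 and 1475 in Zac1 replicate 12, against 0 recovered counts in both CAT libraries. Recovered counts are the whole tag counts behind the deposited values, and their totals ranged from 12442532 to 12812457 in the Zac1 libraries and from 11578920 to 13840674 in the CAT libraries. Counts over all genes differed between libraries beyond sampling noise within both groups. Chi-square divided by its degrees of freedom was 39.1 for the Zac1 pair and 13.6 for the CAT pair. Zac1 replicate 9 stood apart from the CAT libraries (33.2 and 40.0), more than Zac1 replicate 12 did (13.4 and 12.8). Values of Nptx1 are therefore given library by library and also without each one. Where 2 values follow each other for a group below, the first is from replicate 9 and the second from replicate 12.

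Nptx1 was well expressed in Zac1 cells and low in CAT cells. Its normalised count was 728 in Zac1 replicate 9 and 364 in Zac1 replicate 12, against 18.6 in CAT replicate 9 and 5.51 in CAT replicate 12. Both Zac1 libraries lay far above both CAT libraries, and the groups did not overlap, which the choice of Nptx1 by this difference favours. With 2 libraries per group, a lack of overlap, here and below, can also arise by chance. Its share over all genes tested was not computed. The means were 546 ± 257 in the Zac1 libraries and 12.1 ± 9.26 in the CAT libraries (SD, n = 2 each), a fold of 45.3 between the means. On the log2(value + 1) scale the difference was 5.51 ± 0.45 (SE of the limma fit over all genes). In a culture, more cells with Nptx1 RNA and more of it per cell cannot be told apart.

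The tags behind these values were few in control cells. The recovered count was 749 in Zac1 replicate 9 (exact 95% Poisson interval 696 to 805) and 368 in Zac1 replicate 12 (331 to 408). It was 17 in CAT replicate 9 (9.90 to 27.2) and 6 in CAT replicate 12 (2.20 to 13.1). The Zac1 intervals do not meet, and the CAT intervals do. In CPM, which scales counts to a common library total, Nptx1 was at 60.2 in Zac1 replicate 9 and 28.7 in Zac1 replicate 12, against 1.47 in CAT replicate 9 and 0.434 in CAT replicate 12. Intervals of counts and ratios here reflect counting error alone, because PCR can copy 1 molecule many times.

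**Figure D1:**
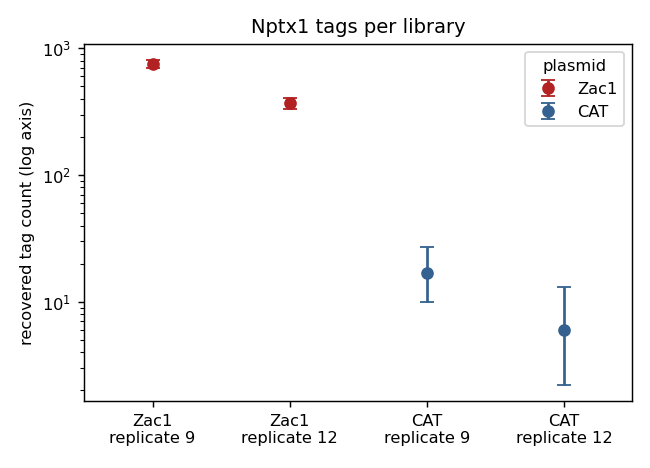
Recovered Nptx1 tag counts in each library on a log axis, with exact 95% Poisson intervals as bars; the Zac1 libraries are on the left and the CAT libraries on the right. The Zac1 libraries hold 749 and 368 tags, and the CAT libraries 17 and 6.

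The size of the difference depended on which libraries were set against each other, while its direction did not. With counts of each group summed and scaled to library totals, the Zac1 libraries held 48.9 times the Nptx1 tags of the CAT libraries (95% interval 32.4 to 77.4). Among libraries of the same number, the ratio was 41.0 for Zac1 replicate 9 over CAT replicate 9 (25.4 to 70.8) and 66.3 for Zac1 replicate 12 over CAT replicate 12 (30.2 to 182). These intervals overlap widely. The smallest ratio of any Zac1 to any CAT library was 19.6, for Zac1 replicate 12 over CAT replicate 9 (12.1 to 33.9). The largest was 139, for Zac1 replicate 9 over CAT replicate 12 (63.5 to 380).

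Within groups, the replicates differed much less than the groups did. Zac1 replicate 9 held 2.10 times the scaled Nptx1 count of Zac1 replicate 12 (95% interval 1.85 to 2.38), and CAT replicate 9 held 3.39 times that of CAT replicate 12 (1.27 to 10.5). Replicate 9 was thus the higher library in both groups, and both intervals lie above 1.

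The Nptx1 level in the Zac1 libraries differed between them in the same direction as that of Plagl1. The ratio of Zac1 replicate 9 to Zac1 replicate 12 in normalised counts was 2.00 for Nptx1 and 2.30 for Plagl1. As a percentage of the Plagl1 value of the same library, Nptx1 stood at 21.4% in Zac1 replicate 9 and 24.7% in Zac1 replicate 12. Zac1 replicate 9 held the higher value of the 2 Zac1 libraries for 48.3% of the 11433 genes tested. Among the 110 genes called higher in Zac1 cells (0.962% of those tested; limma, adjusted p under 0.05), which include Plagl1 and, by the way it was chosen, Nptx1, this held for 103, with a median ratio of 1.61. With 2 Zac1 libraries, a relation between the Plagl1 and Nptx1 levels cannot be tested.

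Nptx1 ranked in the middle and upper part of the listed genes in Zac1 cells and near the bottom in CAT cells. On the scale of tag counts, which is not per transcript length, 75.3% of all lines had a lower value in Zac1 replicate 9 and 59.1% in Zac1 replicate 12, against 18.0% in CAT replicate 9 and 7.92% in CAT replicate 12. Its log2 fold change was the number 5 from the top of the 11433 genes tested, whose median was -0.01. A high rank follows from the choice of Nptx1 by this difference. Testing required a mean of 10 or more across libraries, which Nptx1 also met in the mean of either group alone. By mean level in the Zac1 libraries it ranked number 8 among those 110 genes.

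Genes that started from a similar level give a frame for this value. Nptx1 was chosen by the size of its difference, so its place among them is a description only. The 1027 other tested genes with a CAT mean within a factor of 2 of that of Nptx1, from 6.03 to 24.1, had log2 fold changes from -2.58 to 3.99, the highest being Hhatl at 3.99 and Itpka at 3.92, and 0 of them exceeded Nptx1. Genes of that range with a CAT mean under 10 were tested only where their Zac1 mean was above 10, so the range leans toward higher values. Of the 3883 other genes whose Zac1 mean was within a factor of 2 of that of Nptx1, the highest log2 fold change was 4.38, in Osgin1, an oxidative stress response gene. Those genes had a median level of 529 in the Zac1 libraries and 530 in the CAT libraries. Hhatl, Itpka and Osgin1 were named after their values were seen.

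**Figure D2:**
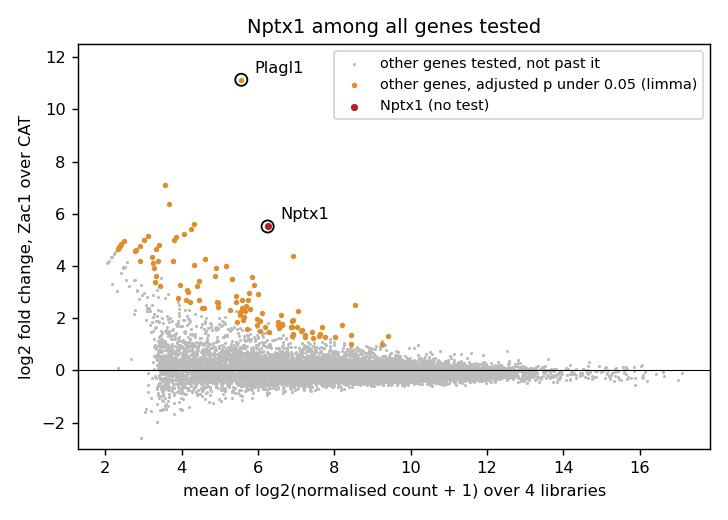
Mean of the log2(normalised count + 1) values of the 4 libraries (horizontal) against log2 fold change of Zac1 over CAT (vertical) for the 11433 genes tested, with Nptx1 in red and Plagl1 ringed, and other genes past the limma threshold in orange. Nptx1 lies at 5.51 on the vertical axis; Plagl1 lies left of it only because its 2 values of 0 lower its mean of logged values, while its mean normalised count is higher.

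The profile of Nptx1 over the libraries was closest to those of genes that were nearly silent in control cells. Likeness was measured as the Euclidean distance between log2(value + 1) profiles, each centred on its mean over the 4 libraries, and the median distance of all tested genes from Nptx1 was 5.69. The nearest was Cnn1, which encodes smooth muscle calponin, at a distance of 0.52. Its normalised count was 73.9 in Zac1 replicate 9 and 34.6 in Zac1 replicate 12, against 1.09 in CAT replicate 9 and 0 in CAT replicate 12. Gm98 followed at 0.76, with 77.8 and 25.7 in the Zac1 libraries, against 1.09 and 0 in the CAT libraries. Both had the order of libraries seen in Nptx1, at lower levels.

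Adam11, a catalytically inactive member of the ADAM family, was at a distance of 0.83, with 100.1 and 59.3 in the Zac1 libraries, against 2.20 and 0.918 in the CAT libraries. Tex19.2 was at 0.84, with 60.3 and 24.7 in the Zac1 libraries, against 1.09 and 0 in the CAT libraries. Eps8l2, an actin regulator, was at 0.98, with 153.6 and 67.2 in the Zac1 libraries, against 6.49 and 0 in the CAT libraries. In all 5 genes Zac1 replicate 9 was the highest library and CAT replicate 12 the lowest, which the choice by profile favours. Nptx1 had the highest level of the 6 genes in every library. As these genes were chosen for their likeness in the same comparison, no test is given for them.

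**Figure D3:**
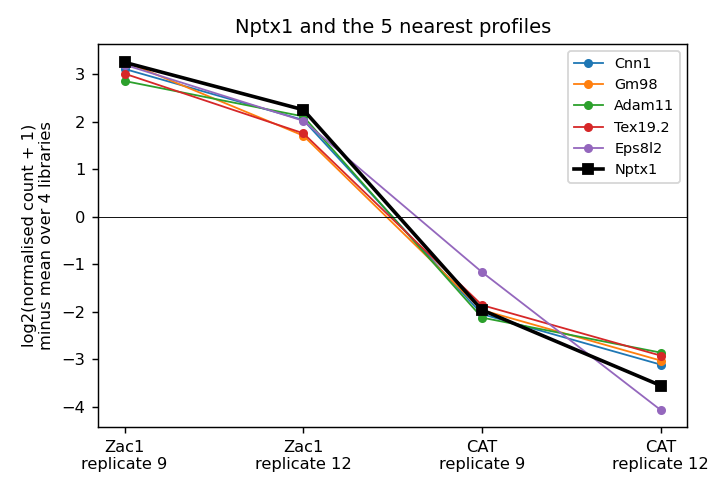
Values of Nptx1 (black squares) and of the 5 tested genes nearest to it (circles) in the 4 libraries, on the log2(normalised count + 1) scale minus each gene's own mean; lines only join the values of 1 gene. All 6 genes are above their mean in both Zac1 libraries and below it in both CAT libraries, and Nptx1 runs from 3.26 in Zac1 replicate 9 to -3.55 in CAT replicate 12.

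Of the 4 measured genes nearest to Nptx1 on chromosome 11, 0 passed the test. Over all genes tested, 0.962% passed as higher and 0% as lower, so 0 of 4 is near that share. In the RefSeq annotation of GRCm38, the nearest genes with a line in the table were A730011L01Rik and Slc26a11 on the side of lower coordinates and Rptor and Chmp6 on the other side. Rptor, which encodes the Raptor subunit of mTOR complex 1, was at 646 and 515 in the Zac1 libraries, against 455 and 548 in the CAT libraries (log2 fold change 0.21 ± 0.23 SE, limma adjusted p = 0.983). Chmp6, an ESCRT-III subunit gene, was at 751 and 551 in the Zac1 libraries, against 727 and 610 in the CAT libraries (-0.05 ± 0.23, limma adjusted p = 0.990). The groups overlapped in both genes. The anion transporter gene Slc26a11, whose groups also overlapped, stood at -0.08 ± 0.29 (limma adjusted p = 0.989). A730011L01Rik was at 45.7 and 42.5 in the Zac1 libraries, against 58.8 and 60.1 in the CAT libraries (-0.42 ± 0.35, limma adjusted p = 0.983). Its groups did not overlap and the Zac1 libraries were the lower ones, which with so few libraries can also arise by chance.

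Genes related to neuronal pentraxins as partners, or only by protein domain, synaptic role or gene class, were then examined in 10 lists. Together the lists name 151 genes, of which 85 had a line in the table and 66 were tested. None passed: 0 were higher and 0 lower (limma, Benjamini-Hochberg adjusted p under 0.05 over all genes), where 0.962% of all genes tested passed as higher and 0% as lower. Without adjustment, 598 of the 11433 genes tested were higher and 110 lower at a limma p under 0.05, and neither edgeR nor DESeq2 called any lower. By that unadjusted measure, 5 of 14 synaptic adhesion receptors and 3 of 12 AMPA receptor auxiliary and anchoring genes were higher. So were 2 of 15 immediate early genes and 1 of 4 perineuronal net genes. The other lists had 0, and no list had a lower gene. No set test was run. Of the 66 genes, 46 had a log2 fold change above 0, and their median was 0.26, beside -0.01 for all genes tested.

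Among AMPA receptor subunits, the targets of neuronal pentraxin clustering, Gria2 was the 1 gene of 4 with a line. It was at 52.4 and 80.1 in the Zac1 libraries, against 73.4 and 90.1 in the CAT libraries, and the groups overlapped (log2 fold change -0.32 ± 0.33 SE, limma adjusted p = 0.983). Gria1, Gria3 and Gria4 were not analysed here. A transcript of the GluA2 subunit was thus present at a low level in both groups, and no difference was detectable at this depth.

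Of 25 genes for AMPA receptor auxiliary and anchoring proteins, 18 had a line and 12 were tested, with 0 past the threshold and a median log2 fold change of 0.42. That median depended on the library, at 0.16 without Zac1 replicate 9 and 0.68 without Zac1 replicate 12. Shisa7, which encodes a receptor auxiliary protein, was at 507 and 448 in the Zac1 libraries, against 263 and 243 in the CAT libraries (0.91 ± 0.23 SE, limma adjusted p = 0.0823). Cnih2, a cornichon that escorts AMPA receptors, was at 125 and 99.9 in the Zac1 libraries, against 53.2 and 46.9 in the CAT libraries (1.15 ± 0.32, limma adjusted p = 0.126). In both genes the Zac1 libraries lay above the CAT libraries without passing. Shisa7 passed in edgeR's quasi-likelihood test (adjusted p = 0.0492), in DESeq2 (0.0319) and with libraries scaled to equal totals (0.0495). It moved further from the threshold after the libraries were corrected for GC content (limma adjusted p = 0.165) and in limma without a variance trend (0.253).

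The most abundant genes of that list differed less. Dlg4, the gene of the postsynaptic scaffold PSD-95, was at 855 and 662 in the Zac1 libraries, against 442 and 606 in the CAT libraries (0.54 ± 0.24 SE, limma adjusted p = 0.728). Olfm1, a secreted olfactomedin found in AMPA receptor complexes, was at 1041 and 1192 in the Zac1 libraries, against 1148 and 810 in the CAT libraries (0.21 ± 0.23, limma adjusted p = 0.983).

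Of 25 genes for other secreted synapse organisers, 12 had a line and 10 were tested, with 0 past the threshold and a median log2 fold change of 0.01. C1ql1, a C1q-like ligand of the adhesion receptor Bai3, was the most abundant, at 8293 and 7368 in the Zac1 libraries, against 7158 and 8027 in the CAT libraries (0.04 ± 0.21 SE, limma adjusted p = 0.990). Agrn, which encodes agrin, stood at 0.30 ± 0.22 (limma adjusted p = 0.967). Sparcl1, the gene of hevin, stood at -0.53 ± 0.40 (limma adjusted p = 0.972) and the thrombospondin gene Thbs3 at 0.43 ± 0.38 (limma adjusted p = 0.983).

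Synaptic adhesion receptors had the highest list median, 0.46, and 13 of the 14 tested genes had a log2 fold change above 0, but 0 passed. The largest value was that of Bai2, an adhesion G protein-coupled receptor gene, at 139 and 59.3 in the Zac1 libraries, against 23.5 and 35.7 in the CAT libraries (1.62 ± 0.42 SE, limma adjusted p = 0.0951). Flrt1, a leucine-rich repeat adhesion gene, was at 81.7 and 51.4 in the Zac1 libraries, against 28.7 and 16.8 in the CAT libraries (1.52 ± 0.43, limma adjusted p = 0.142). Neither gene's groups overlapped, which with 2 libraries per group can also arise by chance. The abundant Cadm1 and Ptprf had log2 fold changes of 0.39 ± 0.22 (limma adjusted p = 0.932) and 0.31 ± 0.21 (0.955). Bai2 passed without CAT replicate 12 (1.91, limma adjusted p = 0.0145) but not without CAT replicate 9 (1.32, 0.319), and without Zac1 replicate 9 it was at 1.01 (0.922). Such fits hold 1 library of a group, which is assumed to vary like those of the other group.

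Immediate early genes, the class to which Nptx2 belongs, had a median log2 fold change of 0.35, with 14 of 15 tested genes above 0 and 0 past the threshold. Nr4a1, an orphan nuclear receptor gene, came nearest, at 773 and 733 in the Zac1 libraries, against 392 and 391 in the CAT libraries (0.94 ± 0.22 SE, limma adjusted p = 0.0541). It passed in edgeR's quasi-likelihood test (adjusted p = 0.0346), in DESeq2 (0.00697) and with equal totals (0.0291). After correction for GC content (limma adjusted p = 0.126) and in limma without a variance trend (0.213) it moved further from the threshold. Fosb was at 98.1 and 69.2 in the Zac1 libraries, against 19.2 and 51.8 in the CAT libraries (1.35 ± 0.44, limma adjusted p = 0.267), and it rested on CAT replicate 9. Without CAT replicate 12 it passed at 2.04 (limma adjusted p = 0.0104), and without CAT replicate 9 it was at 0.66 (limma adjusted p = 1.00), each with 1 CAT library. The abundant Ier2 and Junb had log2 fold changes of 0.23 ± 0.21 (limma adjusted p = 0.983) and 0.35 ± 0.24 (0.959).

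The 5 ectodomain shedding genes were all tested, with 0 past the threshold and a median log2 fold change of -0.01. Adam17, the sheddase of Nptxr, was at 456 and 469 in the Zac1 libraries, against 446 and 596 in the CAT libraries (-0.16 ± 0.23 SE, limma adjusted p = 0.983). Adam10, the related protease gene, stood at -0.01 ± 0.23 (limma adjusted p = 0.999) and Timp3, a metalloprotease inhibitor gene, at 0.24 ± 0.60 (limma adjusted p = 0.983). Of 4 tested genes of the perineuronal net, the matrix around neurons to which Nptx2 binds, 0 passed. Their median was 0.33, with the proteoglycan genes Ncan at 0.57 ± 0.26 (limma adjusted p = 0.737) and Bcan at 0.43 ± 0.23 (0.917). Nsf, an anchoring gene of the list above that binds the GluA2 subunit, had the lowest log2 fold change of all the lists. It was at 47.7 and 11.8 in the Zac1 libraries, against 49.9 and 42.2 in the CAT libraries (-0.91 ± 0.53, limma adjusted p = 0.939), and was named after its values were seen.

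Rcn2, the calcium-binding partner of Nptx1 in taipoxin binding, was at 256 and 279 in the Zac1 libraries, against 236 and 189 in the CAT libraries (0.34 ± 0.25 SE, limma adjusted p = 0.967). Of 8 genes with a pentraxin domain outside the family, Gpr133 was the 1 with a line, at 8.69 and 18.8 in the Zac1 libraries, against 19.9 and 16.9 in the CAT libraries (-0.48 ± 0.60, limma adjusted p = 0.983). Crp, Apcs and Ptx3 were not analysed here. Of the complement genes, whose C1q the pentraxins bind, 3 of 14 were tested, with a median of -0.20: C1qbp at -0.20 ± 0.21 (limma adjusted p = 0.983), Cd59a at -0.12 ± 0.28 (0.983) and Cd55 at -0.87 ± 0.63 (0.967). No tested gene of the 10 lists had a log2 fold change above 1.62, against 5.51 for Nptx1, which was chosen by its size.

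**Figure D4:**
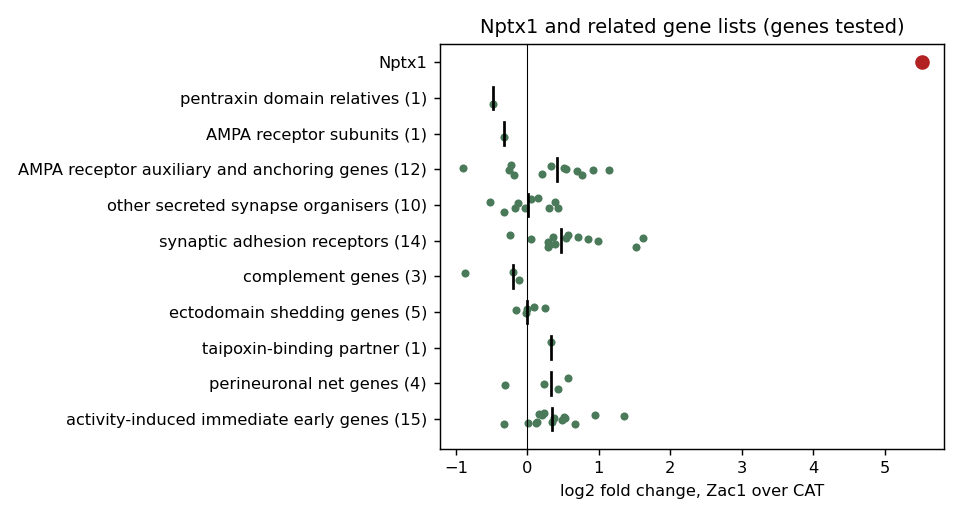
Log2 fold change of Zac1 over CAT for Nptx1 (red, top) and for each tested gene of the 10 related lists (green), with the list median as a black bar and the number of tested genes in brackets. List medians lie between -0.48 and 0.46, and Nptx1 at 5.51.

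The labelled cell type was checked against its markers. Of 20 markers of sympathetic neuroblastoma cells and neurons, 16 had a line, with a summed normalised count of 54376 and 55662 in the Zac1 libraries, against 57336 and 59664 in the CAT libraries, and 0 passed the test. Markers of other cells were low. Those of astrocytes and oligodendrocytes (5 of 10 with a line, mostly Mbp) summed to 415 to 472 in the Zac1 libraries and 253 to 351 in the CAT libraries, with 0 past the test. Of these, Aldh1l1 was at 52.5 and 37.6 in the Zac1 libraries, against 18.7 and 10.2 in the CAT libraries, and the groups did not overlap (log2 fold change 1.61 ± 0.49 SE, limma adjusted p = 0.211). Mag had 31 and 1 recovered counts in the Zac1 libraries, against 0 in both CAT libraries, and Gfap had 1 and 7, against 0 and 3. Those of macrophages (2 of 9) summed to 7.90 to 10.7 in the Zac1 libraries and 7.45 to 12.1 in the CAT libraries, those of fibroblasts (3 of 6) to 17.4 to 35.6 and 15.0 to 16.6, and those of endothelium (4 of 6) to 50.4 to 57.3 and 37.0 to 74.4. The sums of the glial and fibroblast markers were higher in both Zac1 libraries than in both CAT libraries, and their part in the Nptx1 difference was not tested.

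The Nptx1 difference was recomputed under 14 other settings, and its log2 fold change ran from 4.72 to 6.31. The ends of that range were the fits without CAT replicate 12 and without CAT replicate 9. Without Zac1 replicate 9 it was 5.01, and without Zac1 replicate 12 it was 6.01. The transcript's GC content was above that of 74.7% of the 11156 tested genes with a value, whose median was 50.1%. Correcting the libraries for GC content gave a log2 fold change of 5.46. On the recovered counts, edgeR gave 5.53 and DESeq2 5.50.

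**Figure D5:**
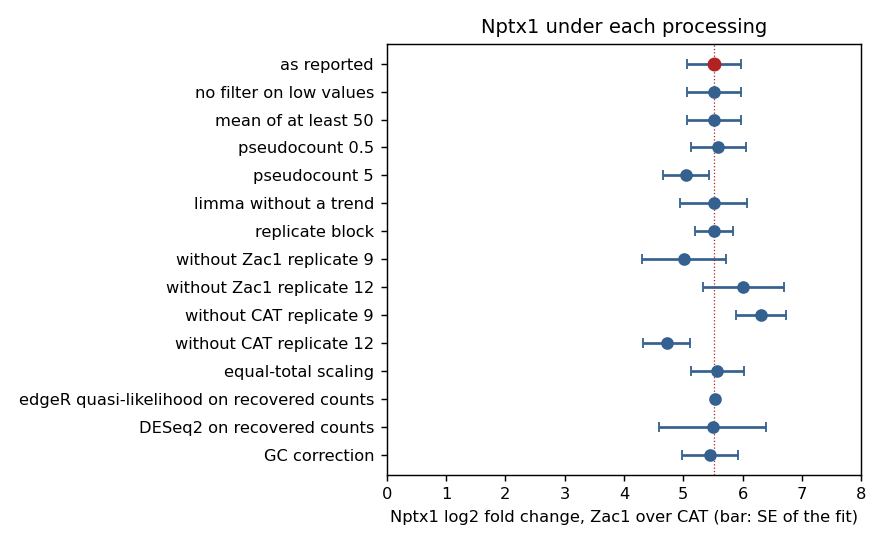
Nptx1 log2 fold change of Zac1 over CAT as reported (red) and under 14 other settings (blue), with the SE of each fit as bars; the edgeR fit has no SE. All values lie between 4.72 and 6.31.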

How the data were processed

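The authors deposited 1 table of a normalised signal, 4 libraries by 12866 lines. Per its deposited name the values are TMM pseudocounts. Per the submitters' processing notes, edgeR was used and the build was mm9. How tags were mapped and assigned to genes was not given in the sources used here. Per the labels' protocols, each library was made from 2 µg of total RNA with 15 PCR cycles. Libraries were grouped by their titles.

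The quantile adjustment behind the pseudocounts was reversed, given a dispersion of 0.0364 and a size for each library, and the result returned 100% of the values within 1e-06 (tested on simulated data). The 5 lines without a gene ID were left out and held at most 0.00897% of a library's counts. The comparison of Zac1 with CAT used limma 3.58.1 (R 4.3.3) on the log2(value + 1) scale, with a variance trend, two-sided, over the 11433 genes with a mean of at least 10, with Benjamini-Hochberg adjustment and a threshold of 0.05. Fold changes on this scale understate changes of low genes. Each gene's spread was moderated toward the trend with 14.1 prior degrees of freedom. Alternatives included edgeR 4.0.16 and DESeq2 1.42.0 on the recovered counts. The limma fit as reported, the edgeR and DESeq2 fits and the GC correction were tested on simulated data. The other settings were not.

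The members and the gene lists were chosen with earlier results of these data known. Named were, in each list, genes past the test, the 2 most abundant and the 2 with the largest absolute log2 fold change, as well as the 5 nearest profiles and the 2 nearest listed neighbours on each side. Transcript sequences came from GENCODE M21. The limma p-values measure the spread between 2 transfections per group. With 14.1 prior degrees of freedom, that spread was drawn more from the trend over all genes than from the gene itself.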

Additional observations from a re-analysis of the deposited data

How the results depend on the processing

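The Nptx1 log2 fold change kept its direction in all 14 alternatives and moved by less than the replicate SD of 0.94, with 4.72 to 6.31 over the fits that left out 1 library. The count of genes higher in Zac1 cells, 110 as reported, was 1 to 154 when 1 library was left out, with the 1 (Plagl1) whichever Zac1 library was left out, and lower genes then numbered 0 to 5, the 5 without CAT replicate 9. It was 67 with a minimum mean of 50, where fewer genes are tested, 69 after the GC correction and 279 with the replicate number as a replicate block. The cause of the last 2 changes was not tested. The labels do not say that the numbers mark a shared day, and the deviations of same-numbered libraries from their group means correlated at 0.20 over genes, so the block is given here only.

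Of the related genes, of which 0 passed as reported, 7 passed as higher with the replicate block (Bai2, Cnih2, Flrt1, Fosb, Nlgn2, Nr4a1 and Shisa7), 3 with equal totals and 3 in DESeq2 (Nlgn2, Nr4a1 and Shisa7 in both), and 2 in edgeR (Nr4a1 and Shisa7). Leaving out 1 library gave 0 to 2 such genes. These fits hold 1 library in one group, which is assumed to vary like those of the other. Equal totals raised the median log2 fold change of all genes by 0.0618. With 17 and 6 tags in the CAT libraries, the 95% interval of the summed Nptx1 ratio ran from 32.4 to 77.4.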

Other observations

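Of the 19 related genes with a line in the table but a mean below the minimum for testing, 4 had 0 recovered counts in both CAT libraries. Every line of the table held at least 10 recovered counts over the 4 libraries. A gene with 0 counts in CAT cells could therefore be listed only through its Zac1 counts, which fixes this pattern. The share of such genes over all lines was not computed. They were picked after their values were seen and were not tested. C3, the central complement component, had 20 counts in Zac1 replicate 9 and 9 in Zac1 replicate 12. Cacng2, the gene of the AMPA receptor auxiliary protein stargazin, had 10 and 3 in Zac1 replicates 9 and 12. Grip2, a scaffold gene of AMPA receptors, had 8 and 4, and Hapln2, a link protein gene of the perineuronal net, had 10 and 1 in these libraries. In each, Zac1 replicate 9 held more counts than Zac1 replicate 12. By counting error alone, a count of 0 allows a mean of up to about 3 counts in a CAT library (upper 95% Poisson limit alone). The counts of Cacng2 and Hapln2 in Zac1 replicate 12 are within that limit. Libraries also differed beyond sampling noise, so a count above the limit does not by itself show a difference.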
